A study of Mus musculus with 12 samples.

Results

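Mouse sciatic nerve was sampled before and after a crush, and 221 RNAs were found far above their uninjured level at every later time point. They were chosen by a rule on the authors' deposited log2 values. The mean of the 3 arrays on day 3, on day 7 and on day 14 each had to lie at least 3 log2 units above day 0, which is 8-fold, and the probe had to be well above background on all 9 injured arrays. A total of 249 probes passed the threshold, 14 of them were left out by the background rule, and the remaining 235 became 221 members once probes that share 25 or more bases on the same strand were joined. The array carried 90752 probes in all. Of the 221 members, 209 were single probes, 10 were pairs and 2 were triples, and each pair or triple is represented here by its probe with the largest mean rise. Since the rule used every injured day against day 0, the rises from day 0 are given as a description with no test. Only the changes between injured days, and probes outside the set, were tested.

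The animals were 72 C57Bl6 mice aged about 2 months, allotted at random to 4 groups, uninjured (day 0) or 3, 7 or 14 days past the injury. The nerve was crushed for 30 s, and RNA came from its distal 0.5 cm. Each time point held 18 mice as 3 pools of 6, and 1 pool went on 1 array. Each pool averages 6 animals, so the spread between arrays is that between pools and not between mice. On day 0, 3 and 7 it also holds differences between the slides that the arrays lay on. The labels mention no transgene, drug or other agent, and they do not say whether the day 0 nerves had a sham operation. In whole nerve, more cells of a type and more RNA per cell cannot be told apart.

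After a crush, the axons beyond the injury break down in Wallerian degeneration while the tube of basal lamina around them stays. Schwann cells shed their myelin and turn into repair cells, macrophages enter from the blood and clear debris, and axons then grow back into the distal stump and are wrapped again. Long non-coding RNAs are transcripts that encode no protein, and some act on chromatin, splicing or RNA stability. The probes on this array have names that begin with MOUSELNCRNA and no gene name, so the labelled tissue could not be checked against its marker genes. Whether each probe reads a non-coding transcript or part of a coding one was not analysed here. RefSeq's tables of miRNA hairpins and promoter windows were searched for the members' sequences. A match was found for 3 of the 221, 2 in hairpins and 1 on the opposite strand of a promoter window, which does not name its RNA.

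Both members that lie wholly within a miRNA hairpin are shown first, since they are the members whose RNA can be named. Capitals mark the bases that belong to a mature miRNA in RefSeq's table, and the build is GRCm38.p6.
MOUSELNCRNA_53252, in Mir142 at chr11:87756864-87756927, plus strand: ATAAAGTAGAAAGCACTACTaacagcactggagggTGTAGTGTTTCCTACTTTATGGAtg
MOUSELNCRNA_54195, in Mir147 at chr2:122640803-122640881, plus strand: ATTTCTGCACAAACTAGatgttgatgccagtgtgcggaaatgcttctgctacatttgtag
In the mature miRNAs that RefSeq's table lists for these hairpins, capitals mark the seed, bases 2 to 8, which pairs with target RNAs. The 3 seeds differ from one another.
mmu-miR-142a-5p: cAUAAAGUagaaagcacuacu
mmu-miR-142a-3p: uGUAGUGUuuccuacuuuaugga
mmu-miR-147-5p: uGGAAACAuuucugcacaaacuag
The Mir142 probe starts at base 5 of the 64-base hairpin and holds 43 bases of mature miRNA. The Mir147 probe starts at base 19 of the 79-base hairpin and holds 17 bases of miR-147-5p. RefSeq's table lists no other mature miRNA of this hairpin, so bases of its other arm are neither marked nor counted. A probe of 60 bases cannot be filled by a mature miRNA, so these signals are taken as those of hairpin-containing precursor or primary transcripts.

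The 5 members with the largest mean rise over the 3 injured days are shown next. Capitals in these and the later probe sequences mark the letters AATAAA, the hexamer that as a rule precedes the cleavage and polyadenylation of an mRNA.
MOUSELNCRNA_50039: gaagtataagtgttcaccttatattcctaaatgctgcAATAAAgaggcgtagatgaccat
MOUSELNCRNA_67465: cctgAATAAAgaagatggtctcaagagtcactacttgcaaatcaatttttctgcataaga
MOUSELNCRNA_19069: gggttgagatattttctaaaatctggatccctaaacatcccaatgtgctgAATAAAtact
MOUSELNCRNA_73433: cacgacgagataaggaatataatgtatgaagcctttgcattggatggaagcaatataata
MOUSELNCRNA_78028: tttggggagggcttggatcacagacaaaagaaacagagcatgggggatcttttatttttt
The next 4 are the members that fell most from day 3 to day 14, chosen in the same way as the rises below.
MOUSELNCRNA_38411: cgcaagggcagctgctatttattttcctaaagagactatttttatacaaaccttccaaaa
MOUSELNCRNA_65125: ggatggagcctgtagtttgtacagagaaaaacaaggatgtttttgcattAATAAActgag
MOUSELNCRNA_61577: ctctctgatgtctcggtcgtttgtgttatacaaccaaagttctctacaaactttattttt
MOUSELNCRNA_37102: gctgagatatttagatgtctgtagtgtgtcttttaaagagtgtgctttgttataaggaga
These 4 rose most from day 3 to day 14 among the members whose rise was called and whose arrays of the 2 days did not overlap.
MOUSELNCRNA_70299: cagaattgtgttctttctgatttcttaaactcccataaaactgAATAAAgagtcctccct
MOUSELNCRNA_81767: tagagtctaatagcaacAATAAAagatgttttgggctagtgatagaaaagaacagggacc
MOUSELNCRNA_8060: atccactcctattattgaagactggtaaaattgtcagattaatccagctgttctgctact
MOUSELNCRNA_86222: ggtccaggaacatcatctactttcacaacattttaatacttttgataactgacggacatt
The last 3 had the smallest range between the injured days.
MOUSELNCRNA_13271: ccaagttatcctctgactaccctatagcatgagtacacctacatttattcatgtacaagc
MOUSELNCRNA_90000: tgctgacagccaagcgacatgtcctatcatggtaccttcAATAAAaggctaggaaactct
MOUSELNCRNA_48822: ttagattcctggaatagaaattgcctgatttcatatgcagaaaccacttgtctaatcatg

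The members' probes were poorer in G and C than the array as a whole and held the hexamer more often. Their median GC content was 36.7%, against 41.7% over the 62803 probes tested. AATAAA was found on the printed strand in 52 of 221 members, or 23.5%, against 16.0% of the probes tested and 14.7% of all 90752. Its reverse complement TTTATT, the same letters read on the opposite strand, stood in 6.79% of members and 4.19% of the probes tested. The letters ATTTA, the core of the AU-rich elements that shorten the life of many immediate-early and cytokine mRNAs, stood in 13.6% of members, 8.38% of the probes tested and 8.41% of all. The longer form TATTTAT stood in 2.26%, 0.971% and 0.907%. A run of 6 A went the other way, with 2.26% of members against 4.43% of the probes tested, and a run of 6 T stood in 3.62% against 2.96%. TATTTAT and ATTTA overlap, since each TATTTAT holds an ATTTA. These strings hold A and T alone, so their shares stand beside the members' lower GC content, whose part in them was not tested. A match describes the letters of a probe only.

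The 12 arrays carried between 64.2% and 79.5% of their spots well above background, and none had a saturated spot. They lay on 3 slides. Slide 1 held day 0 and day 3, each with replicates 1 and 2. Slide 2 held replicate 3 of day 0 and of day 3 with replicates 2 and 3 of day 7, and slide 3 held replicate 1 of day 7 with the 3 arrays of day 14. Day 14 thus shared a slide with neither day 0 nor day 3, and its differences from these days cannot be told apart from slide except through day 7. A probe on several spots was averaged, levels below are log2 processed signals scaled to a common 75th percentile, and rises are the authors' log2 values unless stated. A value after ± is the standard error (SE) of the limma fit, with 3 arrays a day.

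Against day 0 the members' median rise was 4.52 on day 3, 4.17 on day 7 and 3.67 on day 14. The rises ranged from 3.00 to 9.29 on day 3, from 3.08 to 8.81 on day 7 and from 3.00 to 8.63 on day 14. In 220 of the 221, all 9 injured arrays lay above all 3 day 0 arrays, as the rule makes likely. The exception was MOUSELNCRNA_86571, whose day 3 arrays stood at 9.05, 8.96 and 5.29 against 5.65, 4.36 and 4.79 on day 0. In the scanner values, the rise was at least 1 in all 221 on each day, also when slide was fitted as a fixed block (the slide block below). It was at least 3 in 211, 211 and 179 members on day 3, 7 and 14, and in 211, 208 and 165 with the slide block. Within slide 1 the median rise to day 3 was 4.24, and within slide 2 it was 4.76 to day 3 and 4.05 to day 7. The lowest rise to day 3 was 2.32 within slide 1 and 0.50 within slide 2.

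**Figure D1:**
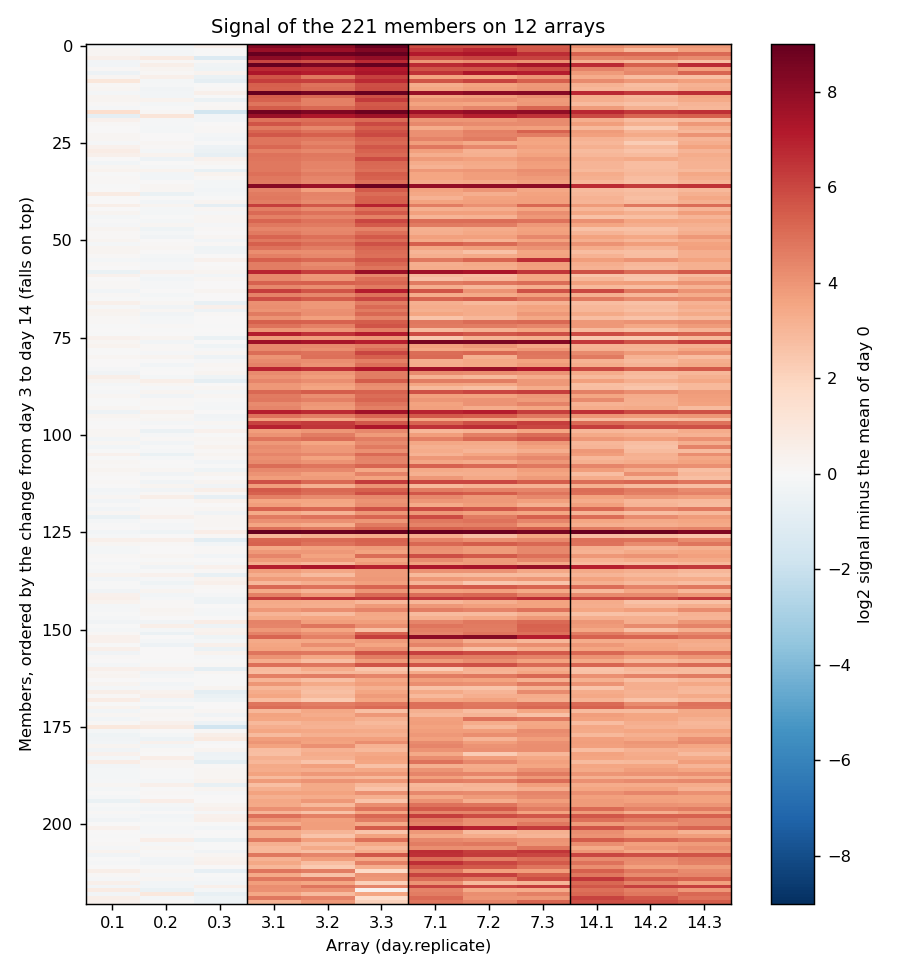
The log2 signal of each of the 221 members (rows, ordered by their change from day 3 to day 14) on each of the 12 arrays (columns, day and replicate), with the member's day 0 mean subtracted. The 9 injured arrays are red in nearly every row, and the upper rows pale from day 3 to day 14.

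Many members gave little signal in uninjured nerve. Of the 221, 51 were well above background on none of the 3 day 0 arrays, 16 on 1, 30 on 2 and 124 on all 3. For the 51, the day 0 level has only an approximate upper bound, and the fold is an approximate lower one. A probe not well above background can read above the dimmest one that is. Folds given as at least a value are therefore no strict limits, here and below. The injured mean was set against the mean, over the day 0 arrays, of the probe's signal or of the dimmest signal that counted as well above background there, whichever was the higher. Over these 51 the rise was at least 3.01-fold to at least 246-fold on day 3, with a median of 10.2, at least 2.60-fold to 184-fold on day 7 and at least 2.74-fold to 172-fold on day 14. The 124 seen on every day 0 array had a mean rise over the injured days of 3.20 to 7.65, with a median of 4.00. Members at the rule's edge differed little from those left out. MOUSELNCRNA_58621 rose by 5.05, 3.81 and 3.0006 on day 3, 7 and 14, and MOUSELNCRNA_86132 by 3.0016, 5.48 and 4.06. MOUSELNCRNA_25122 stayed out with 3.15, 3.81 and 2.998, and MOUSELNCRNA_22718 with 4.28, 2.997 and 4.501.

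The member with the largest mean rise, MOUSELNCRNA_50039, read 2.10, 1.97 and 2.91 on the day 0 arrays. It read 11.51, 11.18 and 11.997 on day 3, 11.36, 11.18 and 10.89 on day 7, and 11.23, 11.16 and 10.75 on day 14. It was well above background on no day 0 array, and it rose at least 246-fold, 184-fold and 172-fold on the 3 days. Its injured days overlapped, and day 14 differed from day 3 by -0.52 ± 0.27 (SE; limma adjusted p = 0.128). Under the slide block this difference was -1.36 (limma adjusted p = 0.016).

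MOUSELNCRNA_67465 and MOUSELNCRNA_19069 stood next and came down by day 14. MOUSELNCRNA_67465 read 4.82, 3.39 and 1.66 on day 0, 11.98, 11.66 and 12.11 on day 3, 10.94, 11.18 and 11.30 on day 7, and 10.04, 9.63 and 9.84 on day 14. Its fall from day 3 to day 14 was -2.08 ± 0.58 (limma adjusted p = 0.0123). The slide block brought it to -1.06 (limma adjusted p = 0.537). MOUSELNCRNA_19069 read 5.64, 6.45 and 5.61 on day 0 and 15.24, 14.34 and 15.95 on day 3, then 12.58, 12.91 and 13.34 on day 7 and 12.62, 11.26 and 12.58 on day 14. Days 7 and 14 overlapped and both lay below day 3. The change from day 3 to day 14 was -3.02 ± 0.46 (limma adjusted p = 0.000445; 0.0773 with the slide block).

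MOUSELNCRNA_73433 peaked on day 7. Its arrays read 4.19, 3.79 and 4.03 on day 0, 11.66, 11.41 and 11.01 on day 3, 12.56, 12.50 and 12.28 on day 7, and 10.36, 9.72 and 10.20 on day 14, and no 2 days overlapped. It rose by 1.09 ± 0.20 from day 3 to day 7 (limma adjusted p = 0.00328) and fell by 2.35 ± 0.20 from day 7 to day 14 (limma adjusted p = 6.62e-05). MOUSELNCRNA_78028 read 2.11, 2.37 and 2.03 on day 0, none well above background, 10.36, 9.95 and 11.02 on day 3, 10.06, 10.17 and 10.23 on day 7, and 8.92, 8.49 and 8.69 on day 14. Days 3 and 7 overlapped, and it fell by 1.46 ± 0.23 to day 14 (limma adjusted p = 0.00283; 0.07 within slide 3).

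From day 3 to day 7, 76 of the 221 members fell and 38 rose at a limma adjusted p below 0.05, which is 34.4% and 17.2%. Over all 62803 probes tested, 18.6% were lower and 15.7% higher. The members' median change was -0.27, against -0.11 over all probes tested. The change exceeded 2-fold in 51 of the 76 and in 21 of the 38. Calls above 2-fold were counted for the members only, here and below, so they have no share over all probes beside them. Within slide 2, the slide with both days, where day 3 had 1 array, the members' median change was -0.53, against -0.10 over all probes.

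From day 7 to day 14, 61 members fell and 1 rose, which is 27.6% and 0.452%, against 4.35% lower and 5.61% higher over all probes. The median change was -0.54 against -0.05 over all probes, and 194 of the 221 changes had a negative sign. Of the 61, 37 fell more than 2-fold. Under the slide block 32 members were called, all of them lower. There 5.54% of all probes were called, 59.6% of these higher. In slide 3 alone, where day 7 had 1 array, the members' median change was -0.52, against -0.01 over all probes. Without replicate 2 or 3 of day 14 or replicate 2 of day 7, 33, 37 and 38 members were called, none of them higher. Over all probes 5.67%, 6.73% and 5.85% were called in these fits.

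From day 3 to day 14, 123 members fell and 16 rose, or 55.7% and 7.24%, against 32.8% lower and 21.9% higher over all probes. The median change was -0.78 against -0.16, and 93 of the 123 fell and 8 of the 16 rose more than 2-fold. The rule keeps each member at least 3 above day 0 on day 14, so a fall here is one from a higher day 3 level and never a return to the uninjured level. It asks the same of day 3 and day 7, so RNAs that rose only later could not be members. The shares over all probes are under no such limit, here and in the other comparisons. The slide block left 64 lower and 4 higher, while 18.2% of all probes were called, 41.9% of these higher. Of the 123, 61 stayed called lower, of the 16 only MOUSELNCRNA_70299 stayed called higher, and 138 of the 139 kept their sign. As a random block, slide left 101 lower and 5 higher, while 28.7% of all probes were called, 46.8% of these higher.

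Scaling moved the split of the calls more over all probes than among the members. After quantile normalization, which shifted the median of all probes from day 3 to day 14 from -0.159 to 0.00688, 111 members were lower and 20 higher. The share of higher among all probes called went from 39.98% to 52.0%, and among called members from 11.5% to 15.3%. From day 3 to day 7, where that median went from -0.108 to 0.0155, these shares went from 45.7% to 58.3% and from 33.3% to 38.0%. One array stood apart among the members called. Replicate 3 of day 3 was the highest of the 3 day 3 arrays in 87.0% of the 123, a share not counted over all probes. It lay above the mean of the other arrays by a median of 0.51 in the 123 and 0.22 in the 16 called higher. Over all probes tested this median was 0.03. In 5 of the 16, replicate 3 was the lowest day 3 array. Without replicate 3 of day 3, 111 members were lower and 18 higher from day 3 to day 14. Over all probes 58.9% were called in that fit, 40.5% of these higher.

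**Figure D2:**
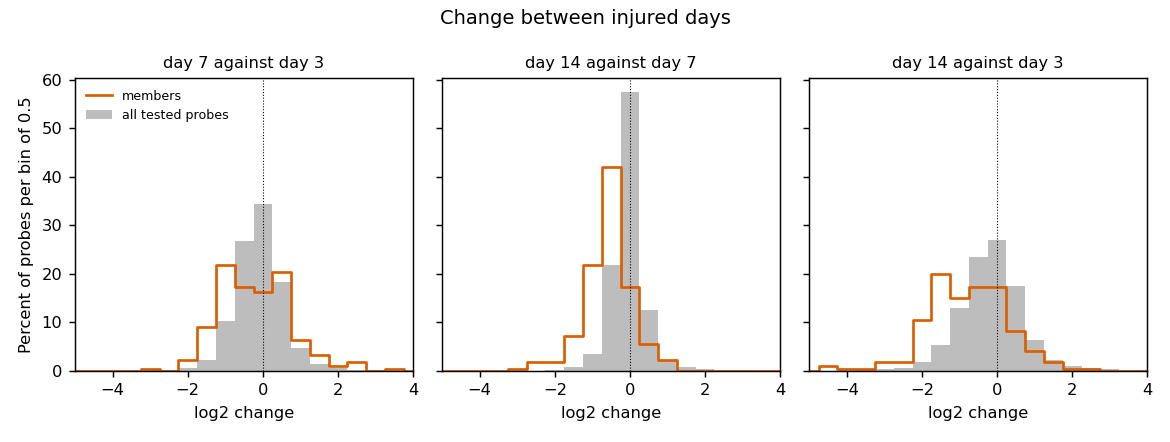
Histograms of the log2 change between injured days, in percent per bin of 0.5, for the 221 members (orange outline) and for all 62803 tested probes (grey bars). The members' medians are -0.27, -0.54 and -0.78. Between day 3 and day 7 their outline is wider than the grey bars on both sides, and in the later panels it lies further to the left.

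The calls sorted the members into a few time courses. The largest course, with 62 members, was lower on day 7 than on day 3 and lower on day 14 than on day 3, with no call from day 7 to day 14. That is 28.1% of members, against 15.1% of all probes tested. In 26 the fall was called from day 7 to day 14 and from day 3 to day 14, and in 13 at every step, or 11.8% and 5.88%, against 2.07% and 1.13% of all probes. In 18, or 8.14%, the level was called higher on day 7 than on both day 3 and day 14, against 0.796% of all probes. In 9, or 4.07%, it was called higher than day 3 on day 7 and on day 14, with no call between these, against 10.69% of all probes. A total of 56 members, 25.3% against 39.9% of all probes, were called in none of the 3 comparisons, which does not show that they were constant. In 26 of these the injured day means lay within 0.5 of each other. The highest injured mean was on day 3 in 117 members, on day 7 in 86 and on day 14 in 18. The same was not counted over all probes. The rule kept out RNAs that rose only after day 3, so few members highest on day 14 are in part built in.

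In the 4 largest falls both steps were called. MOUSELNCRNA_38411 read 3.74, 3.49 and 4.22 on day 0, 12.12, 11.93 and 12.95 on day 3, 9.70, 9.62 and 9.37 on day 7, and 8.02, 7.76 and 7.72 on day 14. It fell by 2.77 ± 0.26 and then by 1.73 ± 0.26 (limma adjusted p = 9.21e-05 and 0.002), and by 4.50 in all (limma adjusted p = 1.02e-06). The days did not overlap, and day 14 still lay above every day 0 array.

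MOUSELNCRNA_65125 was already well above background in uninjured nerve, at 7.14, 6.78 and 6.89. It read 14.72, 14.61 and 15.24 on day 3, 13.30, 13.72 and 12.54 on day 7, and 10.62, 9.87 and 10.66 on day 14. The later step was the larger, -2.80 ± 0.31 (limma adjusted p = 0.000288) after -1.67 ± 0.31 (limma adjusted p = 0.00297). Within slides 3 and 2 these were -2.92 and -2.12, with limma adjusted p = 0.0559 and 0.079.

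MOUSELNCRNA_61577 had the largest rise to day 3 of any member, 9.29. Its arrays read 5.06, 4.71 and 4.86 on day 0, 13.82, 13.74 and 14.60 on day 3, 12.05, 12.19 and 11.56 on day 7, and 10.20, 10.09 and 9.96 on day 14. The fall from day 3 to day 14 was -3.97 ± 0.23 (limma adjusted p = 1.12e-06). MOUSELNCRNA_37102 read 3.48, 3.79 and 1.76 on day 0, 11.08, 10.63 and 10.94 on day 3, 8.91, 9.11 and 9.12 on day 7, and 7.47, 7.55 and 7.27 on day 14. It fell by 3.45 ± 0.41 from day 3 to day 14 (limma adjusted p = 9.22e-05). Under the slide block its steps were -1.17 from day 3 to day 7 and -1.48 from day 7 to day 14, neither called (limma adjusted p = 0.0964 and 0.13), and the whole fall was -2.65 (limma adjusted p = 0.0283). In both the 3 injured days were apart from one another.

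Fewer members were higher on day 14 than on day 3, and the rule left out RNAs that rose only after day 3. No member was called higher in all 3 comparisons, against 2.03% of all probes. MOUSELNCRNA_70299 read 3.74, 3.505 and 2.92 on day 0, 6.48, 7.32 and 5.43 on day 3, 8.22, 7.87 and 8.63 on day 7, and 9.22, 9.19 and 8.87 on day 14. It rose by 2.68 ± 0.40 from day 3 to day 14 (limma adjusted p = 0.000436; 0.00474 with the slide block), most of it by day 7. MOUSELNCRNA_8060 read 2.33, 3.53 and 1.94 on day 0, 6.10, 5.46 and 6.16 on day 3, 7.24, 6.80 and 7.13 on day 7, and 7.79, 7.37 and 7.76 on day 14. Its rise from day 3 to day 14 was 1.73 ± 0.35 (limma adjusted p = 0.00254; 0.153 with the slide block).

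MOUSELNCRNA_86222 read 1.15, 1.16 and 1.89 on day 0, with no array well above background. It read 5.62, 6.25 and 5.76 on day 3, 7.46, 7.39 and 7.73 on day 7, and 7.01, 7.56 and 7.58 on day 14, which is at least 4.79-fold, 15.0-fold and 13.6-fold above day 0. The change from day 3 to day 14 was 1.504 ± 0.24 (limma adjusted p = 0.000671; 0.0775 with the slide block). MOUSELNCRNA_81767 read 5.28, 4.58 and 4.34 on day 0, 9.51, 9.17 and 6.32 on day 3, 9.80, 8.75 and 8.69 on day 7, and 10.80, 10.30 and 9.63 on day 14. Its rise of 1.91 ± 0.72 (limma adjusted p = 0.0426) rested on replicate 3 of day 3, without which it was 0.90 (limma adjusted p = 0.0911).

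The 3 members picked for the smallest range had near-equal means on the injured days. MOUSELNCRNA_13271 read 5.37, 4.68 and 5.06 on day 0, 10.09, 9.84 and 10.16 on day 3, 10.02, 9.87 and 10.21 on day 7, and 10.37, 9.81 and 9.85 on day 14, with means of 10.03, 10.04 and 10.01. MOUSELNCRNA_48822 had means of 6.13, 6.25 and 6.20, at least 5.71-fold, 6.22-fold and 5.97-fold above day 0, where no array was well above background. MOUSELNCRNA_90000 had means of 5.75, 5.75 and 5.64, with an SD of up to 0.51. Under the slide block its differences turned to 0.90 on day 7 and 1.37 on day 14 against day 3 (limma adjusted p = 0.0222 and 0.0248), so its evenness depended on the slides.

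**Figure D3:**
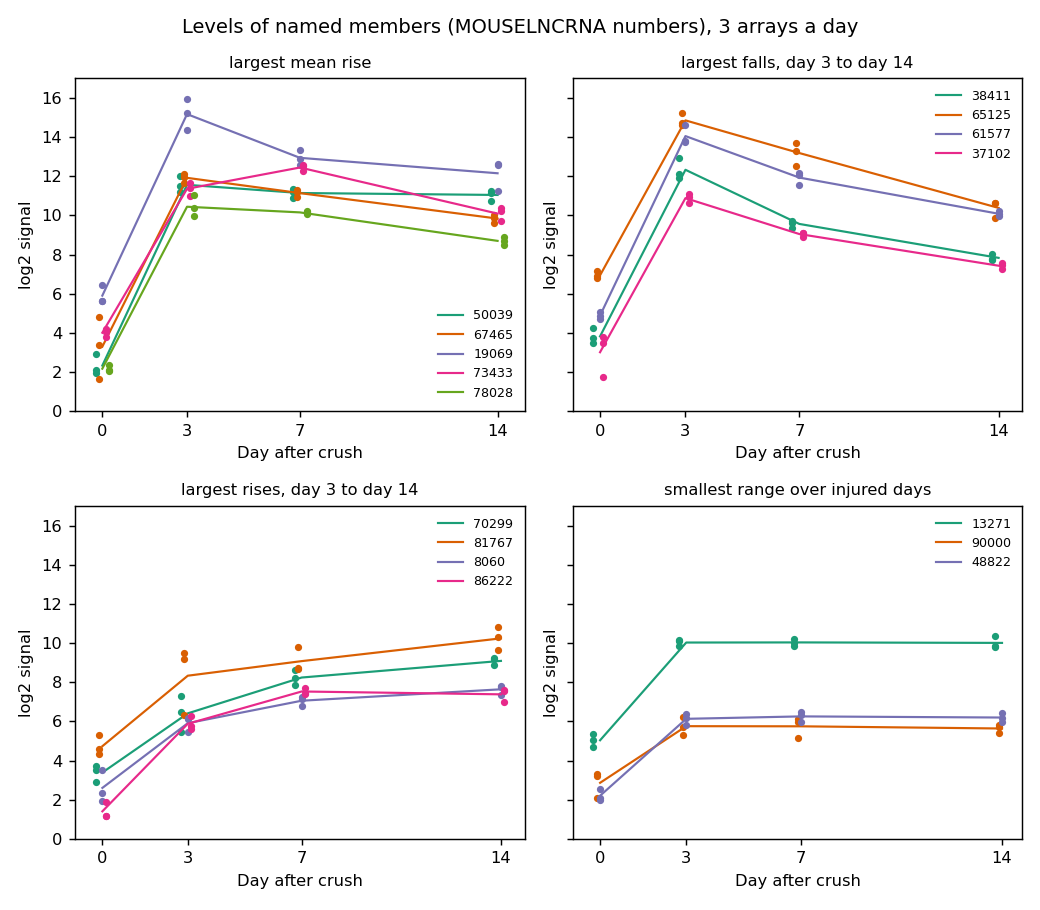
The log2 signal of 16 named members on each array (points) and the mean of each day (lines) against the day after crush, in 4 panels by the rule that named them. MOUSELNCRNA_38411 falls from a mean of 12.33 on day 3 to 7.83 on day 14, MOUSELNCRNA_70299 rises from 6.41 to 9.09, and MOUSELNCRNA_13271 stays between 10.01 and 10.04.

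Both hairpin probes stood above day 0 on every injured day, and that of Mir147 was called lower by day 14. The Mir142 locus is transcribed in blood cells of nearly all lineages and its miRNAs are widely used as marks of such cells. miR-147 is known from macrophages, where it rises when Toll-like receptors are stimulated. MOUSELNCRNA_53252, in Mir142, read 2.84, 2.29 and 2.31 on day 0, none well above background. It read 5.86, 5.94 and 6.29 on day 3, 6.50, 5.72 and 5.47 on day 7, and 5.83, 5.79 and 5.88 on day 14, and the injured days overlapped. It was at least 5.33-fold, 4.84-fold and 4.64-fold above day 0, and day 14 differed from day 3 by -0.20 ± 0.25 (limma adjusted p = 0.509). Under the slide block that difference was -1.15 (limma adjusted p = 0.0451).

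MOUSELNCRNA_54195, in Mir147, was well above background on every array. It read 4.72, 4.51 and 4.81 on day 0, 9.90, 9.56 and 10.38 on day 3, 8.81, 9.20 and 9.97 on day 7, and 8.51, 7.83 and 7.68 on day 14. Days 3 and 7 overlapped, and day 14 lay below both. It fell by 1.94 ± 0.31 from day 3 to day 14 (limma adjusted p = 0.000669; 0.087 with the slide block) and by 1.32 ± 0.31 from day 7 (limma adjusted p = 0.0233; 0.33 within slide 3). No test compared the courses of the hairpin probes with each other, and under the slide block their changes from day 3 to day 14 were -1.15 for Mir142 and -1.44 for Mir147.

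RefSeq's table held 1005 hairpins, and 887 probes lay wholly within one. Of these 537 were tested, and 10 stood at least 1 above day 0 on each injured day in the authors' values, both members among them. The rest of the 537 did not, and the share of all tested probes that did was not counted. Beside the members, the other 8 of the 10 were named after their values were seen. The Mir21a probe came nearest to the set, with rises of 2.98, 3.49 and 2.64. miR-21 is induced in many injured tissues. Its scanner changes were 2.83, 3.27 and 2.37. These 8 were picked by their rise from day 0, so the values are a description with no test. The Mir223 probe, for a miRNA of neutrophils and monocytes, read 1.69, 2.24 and 2.55 on day 0, none well above background, and 5.40, 5.31 and 5.10 on day 3. Its later arrays read 5.34, 4.15 and 5.06 on day 7 and 3.52, 4.54 and 4.13 on day 14. The Mir214 probe had scanner changes of 1.27, 2.19 and 1.03. Probes of Mir6368, Mir92-1, Mir7061 and Mir23a made up the rest, with scanner changes of 0.997 to 1.69. One of the Mir92-1 probes was well above background on no day 0 array. The part that blood-derived cells have in these levels was not tested.

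**Figure D4:**
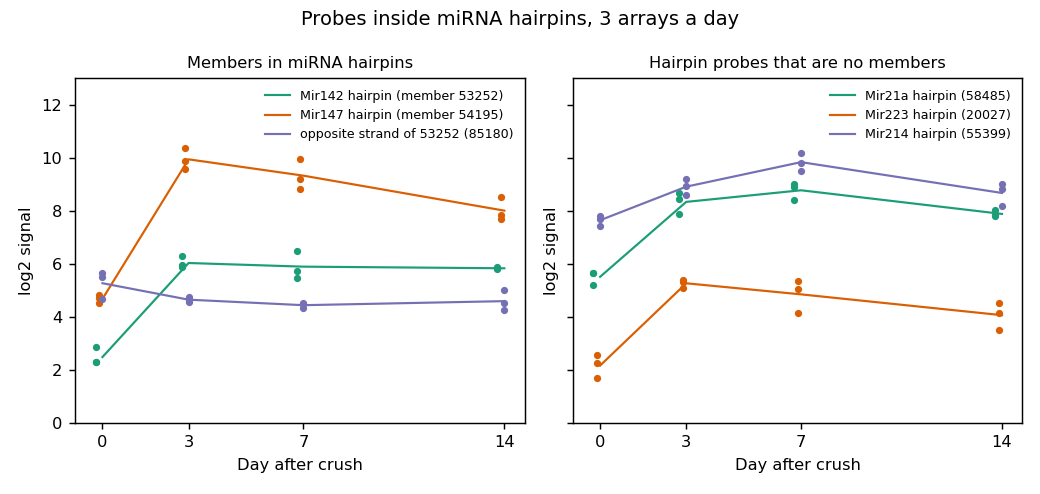
The log2 signal of probes inside miRNA hairpins on each array (points), with the mean of each day (lines), against the day after crush. On the left the Mir142 member stays near 6 from day 3 on, the Mir147 member goes from 9.95 to 8.01, and the probe opposite Mir142 goes from 5.27 on day 0 to 4.44 on day 7. On the right are the Mir21a, Mir223 and Mir214 probes, which missed the rule.

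The third member with a match in RefSeq's tables was MOUSELNCRNA_5075. Up to 41 of its bases equal the opposite strand of the promoter window of H2bc15, a histone H2B gene, from 250 bases before to 50 after its start. Replication-dependent histone genes lie in clusters, often as divergent pairs that share a promoter, and their mRNAs accumulate in dividing cells. The probe's sequence is shown to let the match be read.
MOUSELNCRNA_5075: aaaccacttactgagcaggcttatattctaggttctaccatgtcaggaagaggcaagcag
It read 2.02, 1.08 and 1.88 on day 0, none well above background, 6.05, 5.97 and 6.74 on day 3, 4.78, 5.22 and 5.53 on day 7, and 5.41, 4.88 and 5.87 on day 14. It was highest on day 3, at least 6.20-fold above day 0, and stood at least 2.94-fold and 3.41-fold above it later. The change from day 3 to day 7 was -1.07 ± 0.33 (limma adjusted p = 0.0308), and -0.81 after quantile normalization (limma adjusted p = 0.0582).

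Probes that read the opposite strand of a member were few, and none of them met the rule. There were 4, of which 3 could be tested and 1, opposite MOUSELNCRNA_55736, was too dim. MOUSELNCRNA_85180, opposite the Mir142 member and within Mir142b, read 5.65, 5.49 and 4.67 on day 0, 4.64, 4.73 and 4.57 on day 3, 4.47, 4.52 and 4.34 on day 7, and 5.01, 4.52 and 4.24 on day 14. It was well above background on 2 arrays of day 3, 3 of day 7 and none of day 14, so its day 14 level has only an upper bound. On day 7 it changed by -0.83 ± 0.25 (limma adjusted p = 0.019), and under the slide block by -0.51 (limma adjusted p = 0.2). On day 3 it changed by -0.62 ± 0.25 (limma adjusted p = 0.0624; 0.035 under the slide block and 0.0239 with the replicate number as a block). MOUSELNCRNA_61654, opposite MOUSELNCRNA_78028, changed by 0.06 ± 0.30 on day 3 (limma adjusted p = 0.894) and was lower on day 14 by -0.89 ± 0.30 (limma adjusted p = 0.0323), which the slide block brought to 0.01 (limma adjusted p = 0.992). MOUSELNCRNA_56708, opposite MOUSELNCRNA_87991, rose by 0.58 ± 0.11, 1.15 ± 0.11 and 1.16 ± 0.11 (limma adjusted p = 0.00142, 1.48e-05 and 2.66e-05), where MOUSELNCRNA_87991 rose by 3.68, 4.17 and 3.26. All 3 were thus called on at least 1 day. On single days, 44.4% of all probes were called on day 3, 44.4% on day 7 and 48.4% on day 14, in either direction. The share of all probes called on at least 1 day was not counted, and it is no smaller than any of these. The slide block left 2 of the 3 called, and without replicate 1 or 2 of day 0 it was 1.

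Overlapping members gave like changes. In the 12 groups of 2 or 3 probes, the changes of a group from day 3 to day 14 lay within 0.16 of each other. The probes of a group passed the same rule and were read on the same arrays, so some likeness was built in. It was not tested. MOUSELNCRNA_30373 and MOUSELNCRNA_56955 fell by 2.22 and 2.33. MOUSELNCRNA_71012 and MOUSELNCRNA_49187 both stood highest on day 7, at rises of 7.98 and 7.87, and returned by day 14 to 5.38 and 5.13, near their day 3 values of 5.44 and 5.18. The triple around MOUSELNCRNA_79257 also had its highest mean on day 7, with rises of 3.66, 4.68 and 3.74 for that probe. Its change from day 7 to day 14 was -0.95 ± 0.28 (limma adjusted p = 0.0564), and under the slide block -0.20 (limma adjusted p = 0.709), with day 14 above day 3 by 1.23 (limma adjusted p = 0.029). The triple around MOUSELNCRNA_550 was well above background on day 0, at 9.57, 9.72 and 9.71, and rose by 3.15, 3.89 and 3.72. Across groups, MOUSELNCRNA_17069 and MOUSELNCRNA_81075 shared 39 aligned bases at 89.7% identity, so each may read the RNA of the other. Both were highest on day 7, with rises of 7.21 and 6.28.

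Of the probes that share 25 or more bases with a member on the same strand, 10 were not members, and their rises ran from 0.23 to 5.67. The widest differences lay around MOUSELNCRNA_70299, which 4 such probes overlap. MOUSELNCRNA_44863 had rises of 2.76, 4.83 and 5.67 and missed the rule on day 3 only. The rises were 2.17, 3.71 and 4.63 for MOUSELNCRNA_60598, 0.70, 1.53 and 2.33 for MOUSELNCRNA_73998, and 0.40, 0.41 and 0.69 for MOUSELNCRNA_43564. All 4 were highest on day 14, as MOUSELNCRNA_70299 was, and their day 0 levels were 3.64, 4.84, 7.07 and 6.71. The day 0 arrays of MOUSELNCRNA_73998 read 7.21, 6.97 and 7.04, where the member's read 3.74, 3.505 and 2.92. Around MOUSELNCRNA_47802, MOUSELNCRNA_2315 rose by 4.04, 2.95 and 2.86 and MOUSELNCRNA_9340 by 3.43, 2.63 and 2.54, both highest on day 3 as the member was at 4.71, 3.58 and 3.07. Which transcripts these overlapping probes share was not analysed here.

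**Figure D5:**
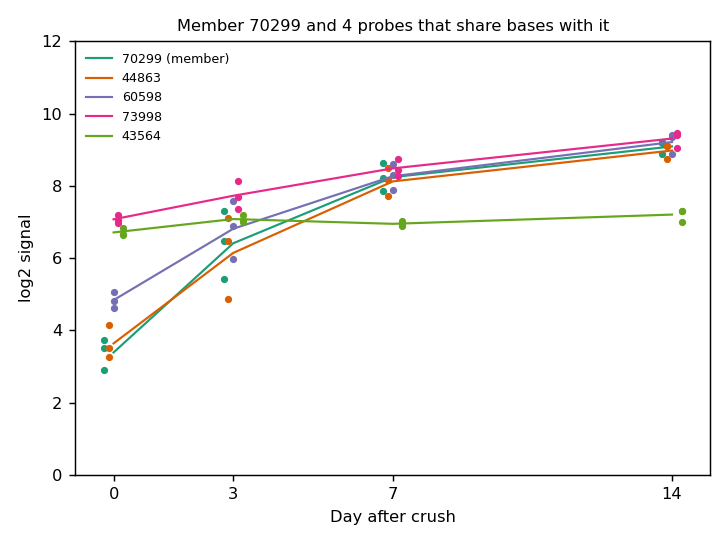
The log2 signal of MOUSELNCRNA_70299 and of the 4 probes that share bases with it, on each array (points) with the mean of each day (lines), against the day after crush. The probes reach 7.20 to 9.31 on day 14 from day 0 means of 3.39 to 7.07.

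The spread between the arrays of a day was wider for the members than over all probes tested. On day 0, 3 and 7 these arrays lay on different slides, so their spread holds slide as well as pool. The median SD within a day was 0.240, 0.339, 0.270 and 0.241 for the members on day 0, 3, 7 and 14, against 0.191, 0.221, 0.156 and 0.118 over all probes tested. MOUSELNCRNA_86571 had the widest, an SD of 2.14 on day 3 that came from replicate 3, the same array that stood apart in MOUSELNCRNA_81767. From day 3 to day 14 it changed by 1.64 ± 0.85 (limma adjusted p = 0.121).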

How the data were processed

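RNA from the distal sciatic nerve was hybridised to 12 one-colour Agilent arrays, 3 pools of 6 mice on each of 4 days, which the labels call biological replicates. The authors' scanner files hold spot intensity values from Agilent Feature Extraction 10.7 per the submitters' processing notes, 10.7.1.1 per the file headers, background-subtracted but not normalized between arrays. The deposited series table holds log2 values with identical quartiles in every column, and the rule for the members used it. No source used here gives its exact steps.

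Of the scanner values, flagged and control spots were dropped, repeated spots were averaged, and log2 signals were scaled to a common 75th percentile. Tests took the probes that passed the scanner's background flag throughout at least 1 day, on its 3 arrays (62803 of 90752). Limma 3.58.1 in R 4.3.3 fitted the 4 day means over all 12 arrays, calls were made at a Benjamini-Hochberg adjusted p below 0.05 over all tested probes, and the fit was tested on simulated data. Python 3.11.15 and pandas 2.3.3 read the files and found shared bases.

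The members, the lists and the tests were chosen with earlier results of these data known. Named were, by rule, the 5 largest mean rises, the 4 largest falls and rises from day 3 to day 14 whose arrays did not overlap, the 3 smallest ranges, the largest overlap groups, the widest spread, the members at the threshold and those matched to RefSeq's GRCm38.p6 tables. Gene lists and marker lists need gene names and were not run. Alternatives were other normalizations, filters, thresholds, slide blocks, the replicate block and leaving out each array. Between day 3 and day 0, same-numbered arrays share a slide and deviated together from their day means (r = 0.325, 0.449 and 0.59). On slide 1, arrays of different number did so as well (r = 0.408 and 0.347), so the numbers pair these arrays no further than the slide does. The number of arrays limits the precision.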

Additional observations from a re-analysis of the deposited data

How the results depend on the processing

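The number of members went from 221 to 423 with a threshold of 2.5 and to 104 with 3.5, and to 125 when every array had to be well above background. It was 202 to 264 without each array in turn, and 175 with scanner values scaled to the 75th percentile. Members called from day 7 to day 14 went from 62 to 32 with slide as a fixed block, to 12 within slide 3, and to between 33 and 82 without single arrays. From day 3 to day 7 they went from 114 to 68 within slide 2, and were 85 to 121 without single arrays. From day 3 to day 14 they went from 139 to 68 with slide as a fixed block, and were 119 to 142 without single arrays. Opposite-strand probes called against day 0 were 1 to 3 without single arrays and 2 with slide as a fixed block, in place of 3. The changes of MOUSELNCRNA_90000 turned from -0.01 to 0.90 (day 7) and from -0.12 to 1.37 (day 14 against day 3) with slide as a fixed block. In these cases the cause was not tested, beside the smaller number of arrays within a slide. The counts of members called stayed within 1.5 times under quantile and normexp normalization, the authors' values, both other filters and slide as a random block. Same-numbered arrays did not deviate together between injured days (correlations of -0.297 to 0.0568), so the numbers do not pair these days. With the replicate block the calls were 114, 67 and 138, and the opposite-strand probes called against day 0 were 3. With slide as a fixed block, added after the data were seen, 155 members stood at least 3 above day 0 on each day in the scanner values, against 170 without it.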
